A study of Mus musculus with 98 samples.

Results

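The NRF2 antioxidant genes described here are 10 genes taken as a fixed list of names: Gclc, Gclm, Slc7a11, Gsr, Gsto1, Txnrd1, Srxn1, Hmox1, Nqo1 and Osgin1. They are 10 of the 18116 genes that were tested in at least 1 comparison of the study. The rule is the list of names and uses no measured value, but the list was proposed with earlier results of these data known. Each of the 10 genes has a row in all 6 count tables. The level of a gene in a library is given as log2 CPM, the log2 of its counts per 1000000 counts of the library (CPM), after scaling the libraries to one another. A log2 fold change is a difference between groups on that scale.

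NRF2, encoded by Nfe2l2, is a transcription factor that the adaptor protein KEAP1 holds at low abundance by directing it to degradation through a CUL3 ubiquitin ligase. Oxidants and electrophiles modify KEAP1, NRF2 then accumulates, pairs with a small MAF protein and binds antioxidant response elements in front of its target genes, a site that BACH1 can occupy as a repressor. The targets make and recycle glutathione, keep thioredoxin reduced, degrade heme and reduce quinones. In brain, astrocytes are known as cells with a strong NRF2 response, whereas mature neurons are known for a weak one.

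The study raised ACSS2, the enzyme that makes acetyl-CoA from acetate, with a PhP.eB virus (upACSS2) and compared it with the empty PhP.eB vector in mouse hippocampal neurons and in mouse hippocampus, in 98 libraries of 22 groups. Neurons came from the hippocampus of embryonic CD1 mice. They met the virus on day 5 in vitro for 48 hours, were washed with PBS on day 7, and then received hAD-tau (the tau material of the labels) or PBS. They were harvested on day 9 or day 21, which gave 8 groups of 3 libraries. A further 4 groups of 3 libraries with the same combinations on day 21 are labelled stimulated. Their labels name neither the stimulus nor the strain. A separate culture without virus was harvested on day 21 after hAD-tau (4 libraries) or PBS (3 libraries). The cell type and promoter in which the virus acts are not given in the sources used here.

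All mice were male and received the virus behind the eye. Aged C57BL6 mice of 22 to 23 months carried upACSS2 or vector for 2 months, and the whole hippocampus was taken 30 minutes after recall of a remote context (12 libraries a group). Their injection is given at 21 to 22 months, which matches an age of 22 to 23 months after 2 months only in part. C57BL6 mice of 10 months carried the virus for 2 weeks, and the dorsal hippocampus was taken 30 minutes after fear conditioning (6 with upACSS2, 5 with vector). PS19 mice, which express a mutant human tau from the Prnp promoter, were injected at 2.5 months and taken 1 month or 6 months later, 30 minutes after a recall test (5 libraries a group). They were then 3.5 months or 8.5 to 9 months old. Every PS19 group carries the transgene, so no comparison with mice lacking it was made. Whole hippocampus is the tissue label of the PS19 upACSS2 group of 1 month, and dorsal hippocampus that of the remaining 3 PS19 groups. Virus and tissue therefore cannot be told apart 1 month after injection, and time and tissue cannot be told apart with upACSS2. Groups follow the sample titles, because titles and treatment entries contradict each other in several groups.

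Total counts per library ran from 5075099 to 39985460, lowest in the mice of 10 months (5075099 to 10839489). Acss2 itself stood at 40.1 to 57.8 CPM in vector neurons and at 1487 to 5460 CPM in upACSS2 neurons, with no overlap. In mouse tissue upACSS2 and vector overlapped in aged mice (46.6 to 61.4 against 39.9 to 53.6 CPM), and did not in mice of 10 months (49.8 to 59.1 against 42.2 to 48.7 CPM). In PS19 mice the ranges were 60.0 to 1463 against 51.4 to 66.3 CPM at 1 month and 44.9 to 236.5 against 43.03 to 55.9 CPM at 6 months, with overlap at the low end and the highest upACSS2 library far above all vector libraries. Neuron markers summed to 2349 to 8051 CPM in the cultures. Astrocyte markers were present in every culture library (2338 to 20758 CPM), whereas 6 endothelial markers summed to at most 4.04 CPM and 9 microglial markers to at most 44.3 CPM outside the tau culture without virus, where microglial markers reached 473 CPM. The 8 activity genes summed to 5460 to 7723 CPM in the stimulated neurons, to 62.3 to 354 CPM in the unstimulated neurons with virus or vector and to 228.1 to 778.1 CPM in the culture without virus. The labels do not say whether replicates are separate cultures, so p-values measure the spread between these libraries, which may be technical.

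The members lie on 6 chromosomes of GRCm38 in the GENCODE M21 annotation. Hmox1 (chr8:75093621-75100589), Nqo1 (chr8:107388225-107403206), Gsr (chr8:33652523-33698163) and Osgin1 (chr8:119434124-119446256) share chromosome 8 without being neighbours. Gclm (chr3:122245557-122270732) and Slc7a11 (chr3:49892526-50443614) are on chromosome 3, Gclc is at chr9:77754535-77794485, Txnrd1 at chr10:82833951-82897712, Srxn1 at chr2:152105516-152111376 and Gsto1 at chr19:47854970-47864790. Gsto1 overlaps Cfap43 on the opposite strand, and the strand setting of the counting is not given in the sources used here.

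Promoter windows from 250 bases before to 50 bases after a RefSeq start (GRCm38.p6) were found for 7 of the 10 members, all but Hmox1, Gclc and Gsr. They were searched on both strands for TGACNNNGC, the core of the antioxidant response element. Further searches were for TGANTCAGC, a related site that can contain an AP-1 site, and for TGACTCA, the AP-1 site itself. Matches to TGACTCA can overlap those to TGANTCAGC. The sequences with a match before the start are shown because these are the letters through which NRF2 is known to act, with the matched letters in capitals and the run printed along the strand of the gene. Gclm and Txnrd1 hold TGACNNNGC on the opposite strand, at chr3:122245413-122245441 and chr10:82859104-82859132. Txnrd1 had 3 windows, for separate starts, where each other member found had 1. Its match is in the window chr10:82858956-82859255, which lies within the annotated gene. Osgin1 and Srxn1 hold TGANTCAGC, at chr8:119437038-119437066 (opposite strand) and chr2:152105469-152105497. Neither of these sites is a match to TGACNNNGC.
Gclm: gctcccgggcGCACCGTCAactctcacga
Txnrd1: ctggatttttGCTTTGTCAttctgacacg
Osgin1: aggggcccctGCTGACTCAcgcttatgaa
Srxn1: aaattcacccTGAGTCAGCggccgggcgc

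Srxn1 was the member with 2 AP-1 matches in its window, both visible in the stretch chr2:152105404-152105515 on the plus strand, which ends at the annotated start of the gene, with the AP-1 letters in capitals.
Srxn1: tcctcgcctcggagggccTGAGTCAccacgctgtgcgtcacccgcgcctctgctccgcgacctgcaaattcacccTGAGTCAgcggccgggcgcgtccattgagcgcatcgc
Srxn1 also holds TGACNNNGC after its start, on the opposite strand at chr2:152105542-152105570, which makes 3 of the 7 members with that core in the whole window. TGANTCAGC and TGACTCA were each found in 2 of the 7. Of all 27025 genes with a window, 14% held TGACNNNGC in at least 1 window, 1.37% held TGANTCAGC and 5.95% held TGACTCA. These shares are per gene, as are the counts of members. Of all 32851 windows searched, 12.4%, 1.19% and 5.2% held a match. Before the start alone the shares of windows were 10.2%, 1.02% and 4.46%. A match is a description of these letters in this window, and a window without one says only that they are not in it.

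Levels between genes were compared per length, as CPM per kilobase of exon in the annotation above. On day 9 Hmox1, the oxygenase that degrades heme, had a median of 6.12 CPM per kilobase over 12 libraries (5.29 to 7.15). Its median was 29.1 on day 21 (19.9 to 59.3), 30.2 in the stimulated neurons and 74.0 in the tau culture without virus, against 2.40 in aged mice, 2.76 in mice of 10 months and 2.90 in PS19 mice. Srxn1, sulfiredoxin, which reactivates overoxidised peroxiredoxins, had the highest median of the 10 in day 21 and stimulated neurons and in all 3 sets of mice: 39.0 and 48.3 in the neurons, and 27.5, 24.9 and 33.3 in aged, 10-month and PS19 mice. Nqo1, a quinone reductase, and Osgin1, an oxidative stress induced growth inhibitor, were the lowest on day 9, with medians of 0.359 and 0.219 that rest on 8 to 25 and 8 to 18 counts a library. In mice Osgin1 had 0 to 16 counts and did not pass the filter on low counts, so 9 members were tested there.

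Slc7a11, the cystine carrier that supplies cysteine for glutathione, had medians of 0.549 on day 9 and 1.44 on day 21, and of 3.90, 3.21 and 3.68 CPM per kilobase in aged, 10-month and PS19 mice. Txnrd1, the cytosolic thioredoxin reductase, and Gsr, which recycles oxidised glutathione, had higher medians in each set of neurons (Txnrd1 21.8 to 28.0, Gsr 18.3 to 28.0) than in each set of mice (Txnrd1 9.06 to 10.8, Gsr 9.24 to 10.7). Gclc, the catalytic subunit of the ligase that starts glutathione synthesis, and Gsto1, an omega class glutathione transferase, had the smallest ratio between their highest and lowest set, from 14.5 to 25.7 and from 10.4 to 18.1. Gclm, the regulatory subunit of the ligase, lay between 5.31 and 16.95. Tables were normalized separately, so these levels across tables are side by side and carry no test.

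**Figure D1:**
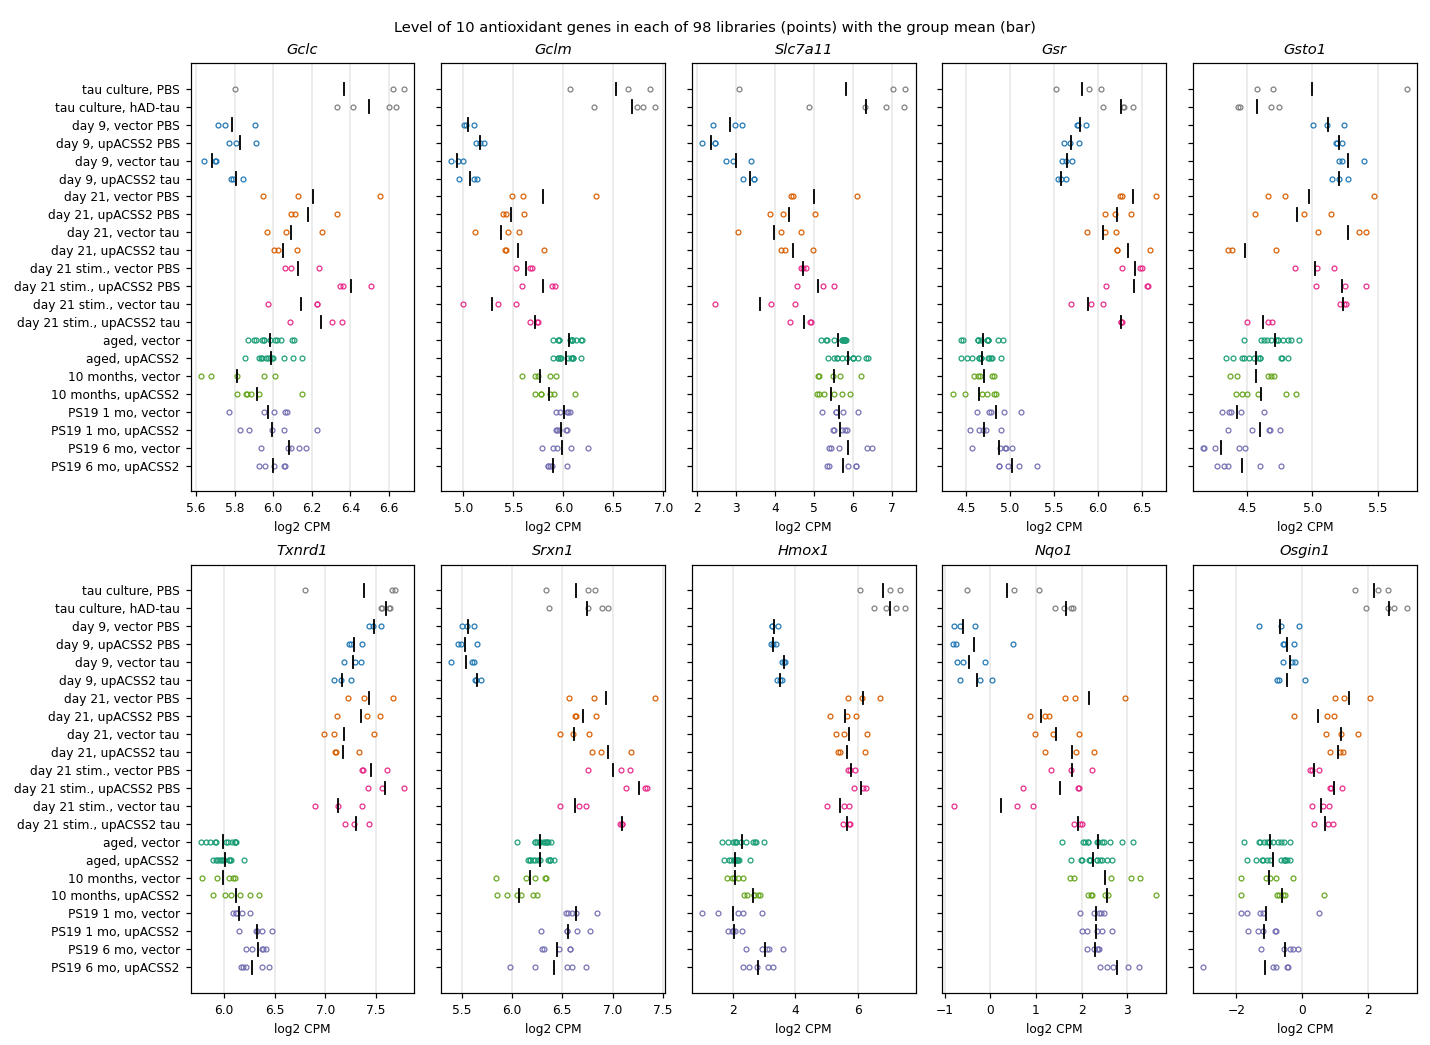
Level of each of the 10 genes in every library as log2 CPM (horizontal axes, a range of its own for each gene) by group (vertical axis), with 1 point a library and a bar at the group mean. Hmox1 sits between 3.23 and 3.66 on day 9 and between 5.13 and 6.70 on day 21, while Txnrd1 stays between 6.99 and 7.67 on both days and lower in mice.

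Day 21 was compared with day 9 in each of the 4 virus and tau conditions, which share no library, to ask how the genes changed as the cultures aged. Hmox1, Slc7a11, Srxn1, Nqo1, Gsr and Osgin1 rose by day 21 in all 4 conditions, by 0.42 to 3.0 on the log2 scale, while Txnrd1 passed the test in none. With vector and PBS 8 of the 10 members passed and rose (57.7% of all genes passed, 30.6% rose), with vector and tau 8 (27.7%), with upACSS2 and PBS 7 (28.5%) and with upACSS2 and tau 7 (27.2%). The median log2 fold change of the 10 was 1.11, 0.76, 0.82 and 0.95 in that order, against 0.05, 0.04, 0.03 and 0.01 over all genes. In bulk libraries more cells of a type and more RNA per cell cannot be told apart, and whether the days differ in preparation batch is not given.

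The days lay furthest apart for Hmox1. On day 9 its log2 CPM was 3.25, 3.26 and 3.44 with vector and PBS, 3.66, 3.65 and 3.56 with vector and tau, 3.28, 3.37 and 3.23 with upACSS2 and PBS, and 3.42, 3.51 and 3.59 with upACSS2 and tau. On day 21 it was 5.67, 6.14 and 6.70, then 5.31, 6.29 and 5.55, then 5.94, 5.67 and 5.13, and 5.37, 5.42 and 6.22 in the same order of groups. The lowest day 21 library lay more than 1 log2 unit above the highest day 9 library. In edgeR's quasi-likelihood test the fold changes were 2.93 ± 0.28 (SE, n = 3 against 3, adjusted p = 3.95e-08), 2.16 ± 0.28 (2.24e-06), 2.34 ± 0.28 (8.09e-07) and 2.22 ± 0.28 (1.21e-06).

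Nqo1 rose by 3.0 ± 0.42 with vector and PBS (edgeR adjusted p = 5.02e-06), from -0.33, -0.66 and -0.79 log2 CPM on day 9 to 1.86, 1.65 and 2.96 on day 21. Its rise was 2.05 ± 0.45 with vector and tau, 1.51 ± 0.43 with upACSS2 and PBS and 2.21 ± 0.41 with upACSS2 and tau, with adjusted p of 0.000689, 0.00605 and 0.000135. The 12 day 9 libraries ended at 0.50 and the 12 day 21 libraries began at 0.86, so the days did not overlap. Osgin1 rose by 2.38, 1.71, 1.12 and 1.64 (edgeR adjusted p = 4.08e-05, 0.00155, 0.0263 and 0.00155). Its rise with upACSS2 and PBS was lost without day 21 replicate 1 (1.02, adjusted p = 0.0758) or 2 (0.87, 0.126) and without day 9 replicate 2 (1.07, 0.068) or 3 (1.04, 0.0793), and its day 9 values rest on few counts.

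Srxn1 lay at 5.62, 5.50 and 5.55 log2 CPM on day 9 with vector and PBS and at 6.81, 6.57 and 7.42 on day 21. Over all conditions it ranged from 5.40 to 5.69 on day 9 and from 6.48 to 7.42 on day 21, with no overlap. It rose by 1.42 ± 0.15, 1.08 ± 0.15, 1.17 ± 0.15 and 1.31 ± 0.15 in the 4 conditions (edgeR adjusted p = 1.42e-07, 6.11e-06, 2.03e-06 and 4.73e-07). Txnrd1, whose product works in the same thioredoxin branch, had medians of 7.27 log2 CPM on day 9 and 7.28 on day 21, and its fold changes lay between -0.08 and 0.08 with standard errors of 0.12.

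Among the 5 glutathione genes of the 10, Slc7a11 had the largest fold change in each condition and the widest spread. With vector and PBS it stood at 2.98, 2.42 and 3.15 log2 CPM on day 9 and at 4.48, 4.41 and 6.12 on day 21 (2.37 ± 0.44, edgeR adjusted p = 0.000109), and with upACSS2 and PBS at 2.46, 2.13 and 2.47 against 5.03, 3.88 and 4.20 (2.10 ± 0.45, 0.000582). These groups did not overlap. With vector and tau the values were 2.75, 2.93 and 3.38 on day 9 and 3.05, 4.68 and 4.17 on day 21, which do overlap (1.07 ± 0.44, 0.047). The call was lost without day 21 replicate 2 (0.66, adjusted p = 0.257) or 3 (1.04, 0.0937) or day 9 replicate 1 (0.94, 0.138) or 2 (1.02, 0.118), with the RLE scaling (0.0545) and with limma (0.0704). With upACSS2 and tau it rose by 1.14 ± 0.42 (0.0285), which was lost without day 21 replicate 3 (0.82, 0.156) and without any 1 of the 3 day 9 replicates (1.18, 1.05 and 1.19, with 0.0566, 0.0862 and 0.0578).

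Gsr rose in all 4 conditions, by 0.61 ± 0.11, 0.42 ± 0.12, 0.53 ± 0.11 and 0.77 ± 0.11 (edgeR adjusted p = 0.000138, 0.00499, 0.000623 and 1.24e-05). Its log2 CPM ran from 5.55 to 5.87 over the day 9 libraries and from 5.88 to 6.66 over the day 21 libraries. Gclc rose by 0.44 ± 0.11 (0.00218), 0.42 ± 0.11 (0.00422) and 0.35 ± 0.11 (0.0118) in the first 3 conditions and differed by 0.25 ± 0.11 with upACSS2 and tau (0.0708). Its day 21 libraries (5.94 to 6.55) lay above its day 9 libraries (5.64 to 5.91). The rise with vector and PBS was lost when only those groups entered the fit (0.0652), that with upACSS2 and PBS without day 21 replicate 1 (0.27, 0.0724), and the difference with upACSS2 and tau passed with only those groups in the fit (0.00476) and with limma (0.00796).

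Gclm rose by 0.81 ± 0.16 with vector and PBS (edgeR adjusted p = 0.000237), by 0.45 ± 0.16 with vector and tau (0.0268) and by 0.50 ± 0.16 with upACSS2 and tau (0.0134), and differed by 0.31 ± 0.16 with upACSS2 and PBS (0.107), which passed with only those groups in the fit (0.30, 0.0111) and with limma (0.31, 0.0215). Its 12 day 9 libraries lay between 4.88 and 5.20 log2 CPM and its 12 day 21 libraries between 5.11 and 6.32. The rise with vector and tau was lost without day 21 replicate 2 (0.33, 0.143) or 3 (0.41, 0.0835) or day 9 replicate 1 (0.45, 0.0608) or 3 (0.42, 0.0757). That with upACSS2 and tau was lost without day 21 replicate 3 (0.35, 0.116) or day 9 replicate 1 (0.44, 0.0538). Gsto1 was the only member that fell. With upACSS2 and tau it went from 5.15, 5.27 and 5.20 log2 CPM to 4.35, 4.72 and 4.39, a fold change of -0.71 ± 0.17 (0.00141; 26.4% of all genes fell), and it passed in none of the other 3 conditions (-0.30 to 0.00). It passed with vector and PBS without day 21 replicate 2 (-0.40, 0.0231) and with upACSS2 and PBS in limma (-0.31, 0.0392).

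**Figure D2:**
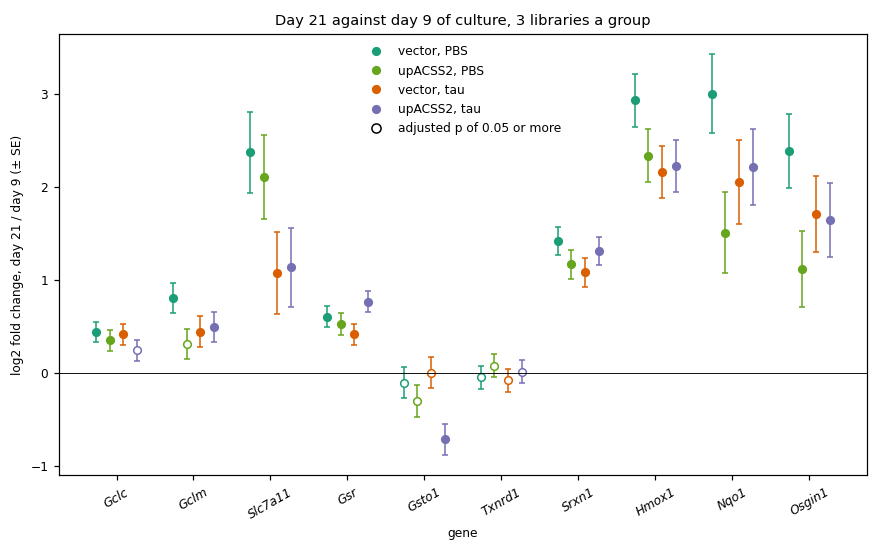
Log2 fold change of day 21 against day 9 (vertical axis, with bars of 1 SE, 3 libraries a group, from edgeR) for each of the 10 genes (horizontal axis) in the 4 virus and tau conditions, with open points where the adjusted p is 0.05 or more. Hmox1 lies between 2.16 and 2.93 in all 4 conditions, Txnrd1 lies near 0 and Gsto1 is at -0.71 with upACSS2 and tau.

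Markers of glia moved with the days. Of 11 astrocyte markers 10 rose with vector and PBS, 7 with vector and tau, 7 with upACSS2 and PBS and 10 with upACSS2 and tau, and none fell. All 4 markers of oligodendrocyte precursors rose in each condition. The summed astrocyte level was 2338 to 2903 CPM on day 9 and 3781 to 20758 CPM on day 21, precursor markers went from 156.6 to 297.2 CPM to 809.1 to 1649 CPM, and neuron markers from 5167 to 5977 CPM to 4309 to 7316 CPM. Oligodendrocyte markers summed to 36.1 to 45.8 CPM on day 9 and to 189 to 1248 CPM on day 21. Of these 6 markers 5, 4, 5 and 5 rose, and Mog fell in each condition. Of 8 neuron markers 3, 4, 4 and 5 rose, and 2 fell in each condition, Map2 and Slc17a6. The part of these cells in the rise of the members was not tested.

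Day 21 replicate 3 with vector and PBS held the highest astrocyte level, 20758 CPM against 8406 and 4835 CPM in replicates 1 and 2, and the highest level of every member except Gsto1 among the 12 day 21 libraries. Without it all 8 rises with vector and PBS still passed edgeR's test. Hmox1 then rose by 2.61, Nqo1 by 2.43, Slc7a11 by 1.55 (adjusted p = 0.00145), Srxn1 by 1.12, Gsr by 0.45, Osgin1 by 1.96, Gclm by 0.48 and Gclc by 0.23 (0.0401). The values for Slc7a11, Gclm and Gclc are more than 1.5 times smaller on the log2 scale than with that library.

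Among the regulators of the pathway Nfe2l2 rose with vector and PBS by 1.54 (edgeR adjusted p = 0.000461) and with upACSS2 and tau by 0.85 (0.0331), and differed by 0.52 (0.195) and 0.40 (0.309) in the other conditions. Its log2 CPM was 4.98, 4.89 and 6.46 on day 21 with vector and PBS and 4.03 to 4.30 over the day 9 libraries. Keap1 and Bach1 passed the test in none of the 27 comparisons. Bach2, a lymphoid and neuronal relative of Bach1, fell in all 4 conditions (-1.45, -1.51, -1.24 and -1.23). Of 11 regulators tested 2, 2, 2 and 3 rose and 3, 2, 2 and 3 fell.

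Of 24 further glutathione and thioredoxin genes 11 rose and 2 fell with vector and PBS, and 13 and 1, 8 and 3, and 10 and 3 did in the other conditions. Gstm1, a glutathione transferase, rose by 3.24, 2.45, 2.42 and 2.43. Its log2 CPM was 5.44 to 5.91 on day 9 and 7.57 to 9.46 on day 21. Mgst1, a membrane-bound glutathione transferase, rose by 3.08 with vector and PBS and by 2.47 with upACSS2 and tau. Of 13 genes of heme breakdown, iron and export tested 9, 7, 7 and 8 rose, among them the biliverdin reductases Blvrb (2.10 with vector and PBS) and Blvra (1.11). The genes of NADPH supply did not follow: of 6 tested 1 rose in the first condition and none in the others, while Idh1, the cytosolic isocitrate dehydrogenase, fell by 1.95, 1.86, 1.8 and 1.72 and the transketolase Tkt fell by 0.75, 0.67, 0.72 and 0.72.

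ATF4 is the other well-known activator of Slc7a11. Of 12 genes tested, Atf4 itself and its targets, 9, 8, 10 and 6 rose, with 1 lower in the first condition and none in the others. Atf3, itself a stress transcription factor, rose by 3.78 with vector and PBS and by 3.10 with vector and tau. Ddit3, which encodes CHOP, rose by 1.53, 1.98, 1.8 and 1.06. Of 8 activity genes 5, 6, 5 and 5 rose.

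Libraries of one group also differed among themselves, and more so late in culture. The pooled SD within groups of Hmox1 was 0.08 log2 units on day 9 and 0.48 on day 21, that of Gclm 0.06 and 0.28, that of Slc7a11 0.28 and 0.74, and that of Gsto1 0.08 and 0.30. After subtracting group means, the deviations of Gclm and of the log2 astrocyte marker sum had a Pearson correlation of 0.90 over the 43 neuron libraries, Srxn1 0.90, Slc7a11 0.89, Gsr 0.88, Gclc 0.77, Hmox1 0.76, Nqo1 0.72, Txnrd1 0.69 and Osgin1 0.48. Gsto1 went the other way, at -0.76. Without the 2 libraries farthest from the median of the marker sum the values were 0.85, 0.88, 0.85, 0.86, 0.61, 0.68, 0.66, 0.54, 0.34 and -0.65. The neuron marker sum went the opposite way and was followed more closely by some members, with -0.86 for Txnrd1, -0.83 for Hmox1, -0.82 for Gclc and -0.60 for Osgin1, and -0.82, -0.78, -0.73 and -0.58 without the 2 farthest. For the other members it lay between -0.75 (Slc7a11) and 0.16 (Gsto1). Precursor markers had their highest correlation with Txnrd1, 0.80 (0.66 without the 2 farthest). Oligodendrocyte markers ran from -0.23 (Gsto1) to 0.68 (Slc7a11), and microglial markers from -0.35 (Gsto1) to 0.56 (Gclc). Without the 2 farthest the ranges were -0.12 (Gsto1) to 0.73 (Txnrd1) and -0.48 (Gsto1) to 0.735 (Slc7a11). Gclc then had 0.71 with oligodendrocyte and 0.705 with microglial markers. For Txnrd1 and Gclc these values lay above those with the astrocyte sum. So did those of Osgin1 (0.39 with oligodendrocyte and 0.48 with microglial markers). For Hmox1 the oligodendrocyte and astrocyte values were both 0.68. Each point shares 1 library and its depth scaling between both measures, so these are descriptions without a test.

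**Figure D3:**
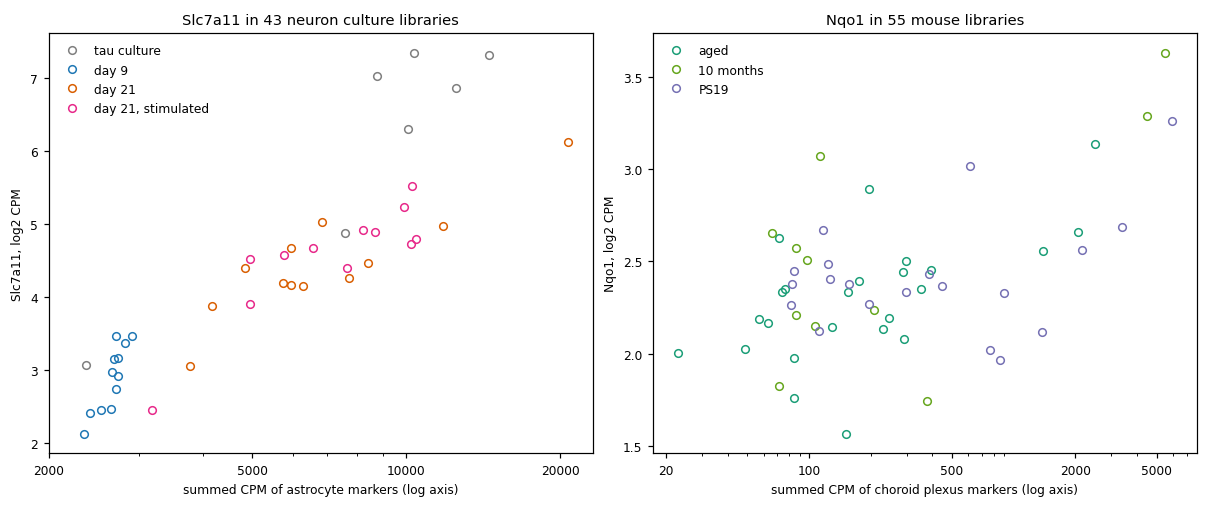
On the left, log2 CPM of Slc7a11 (vertical axis) against the summed CPM of astrocyte markers (horizontal axis, log scale) in the 43 neuron libraries, and on the right, log2 CPM of Nqo1 against the summed CPM of choroid plexus markers (log scale) in the 55 mouse libraries, 1 point a library, coloured by set. Slc7a11 is low in the day 9 libraries, at 2338 to 2903 CPM of astrocyte markers, and higher where these markers are higher, and the highest Nqo1 of the mice (3.63) comes with 5474 CPM of choroid plexus markers.

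The members deviated together in the cultures. Of the 45 pairs of members 36 had a correlation above 0 over the 43 neuron libraries, with a median of 0.65, led by Gclm with Gsr (0.91) and Hmox1 with Gclm (0.90). The 9 pairs below 0 were the 9 pairs with Gsto1 (-0.15 to -0.60). Over the 55 mouse libraries 36 pairs were above 0 as well, with a median of 0.13. Over all 98 libraries and 12682 genes, the genes most like the mean of the 10 members were Lamp1 and Lamp2, the main membrane proteins of lysosomes, Cnn3, a calponin, Cd151, a tetraspanin, and Stxbp3, a syntaxin-binding protein. Their correlations were 0.87, 0.84, 0.87, 0.85 and 0.85.

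On day 9, 2 days after the virus was washed off, upACSS2 was compared with vector. With PBS 2 of the 10 members passed (10.2% of all genes passed) and both fell (5.35% fell, 4.9% rose). Txnrd1 was 7.25, 7.24 and 7.36 log2 CPM with upACSS2 and 7.55, 7.47 and 7.43 with vector, without overlap (-0.21 ± 0.05, edgeR adjusted p = 0.0132). Slc7a11 was 2.46, 2.13 and 2.47 against 2.98, 2.42 and 3.15, with overlap (-0.53 ± 0.17, 0.0461). Txnrd1 lost its call without upACSS2 replicate 1 (adjusted p = 0.0582) or 2 (0.0599) or vector replicate 1 (0.08). Slc7a11 kept its call without vector replicate 2 and lost it without any 1 of the other 5 libraries, with fold changes from -0.41 to -0.68 over the 6 fits and adjusted p up to 0.183. Neither passed with all 24 unstimulated libraries in the fit.

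Around them 9 of 24 glutathione and thioredoxin genes fell and none rose, among them Prdx5 (-0.38), Gpx1 (-0.34) and Txn1 (-0.23), which encode a peroxiredoxin, a glutathione peroxidase and thioredoxin. Of 11 genes tested of the ATF4 list 4 fell, among them Phgdh (-0.34), Ddit3 (-0.36) and Chac1 (-0.48). Of 11 regulators 2 fell, Maff (-0.78) and Rbx1 (-0.21), a small MAF protein and a subunit of the CUL3 ligase. No gene of NADPH supply or of the heme list passed. Of the markers of oligodendrocyte precursors 3 of 4 fell, Pdgfra by 2.39, and of 10 astrocyte markers none passed. Of 4 oligodendrocyte markers 2 fell, Mbp (-0.31) and Cnp (-0.25), of 8 neuron markers Map2 (0.20) and Syt1 (0.15) rose and Snap25 (-0.12) fell, and of 8 activity genes Nr4a1 (-0.56) and Fos (-0.39) fell. Their part in the result was not tested.

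With hAD-tau, upACSS2 moved no member past the threshold in edgeR (0.692% of all genes passed) or in DESeq2. At an unadjusted p under 0.05 in edgeR there were 3 members and 1761 of all 14022 genes. The members were Slc7a11 (0.36, p = 0.0279), Gclc (0.12) and Txnrd1 (-0.11, 0.0406).

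The tau comparison on day 9 gave 2 members with vector (4.28% of all genes passed). Hmox1 was higher with hAD-tau, at 3.66, 3.65 and 3.56 against 3.25, 3.26 and 3.44 log2 CPM, without overlap (0.31 ± 0.09, edgeR adjusted p = 0.0465). Txnrd1 was lower, at 7.19, 7.29 and 7.35 against 7.55, 7.47 and 7.43, without overlap (-0.21 ± 0.05, 0.0223). Hmox1 lost its call without vector and PBS replicate 1 (0.241) or 2 (0.1003) and without vector and tau replicate 1 (0.154) or 2 (0.189), with DESeq2 (0.0942) and with only those groups in the fit (0.0903). Txnrd1 lost its call without vector and PBS replicate 1 (0.152) or vector and tau replicate 1 (0.134) or 2 (0.0915). This comparison and the one of the virus with PBS share the 3 vector and PBS libraries, in which Txnrd1 was highest of the day 9 groups.

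With upACSS2 Slc7a11 was the 1 member that passed in the tau comparison (0.349% of all genes passed). Its log2 CPM was 3.47, 3.17 and 3.47 with hAD-tau and 2.46, 2.13 and 2.47 with PBS, without overlap (1.02 ± 0.16, edgeR adjusted p = 0.00593). The call was lost without upACSS2 and tau replicate 3 (0.97, 0.0636) and held without any 1 of the other 5, and it was lost with all 24 unstimulated libraries in the fit. With vector the tau fold change of Slc7a11 was 0.13 ± 0.16 (0.687). The difference between the tau effects was 0.89 ± 0.23 (0.0583; 0.663% of all genes passed). It passed with no filter on low counts (3.11e-05), without vector and PBS replicate 2 (1.04, 0.0319) and without vector and tau replicate 3 (1.08, 0.00529). No member passed in this test of the difference in edgeR as planned or in DESeq2. Slc7a11 was the 1 member with an unadjusted p under 0.05, among 2409 of 14022 genes.

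Of the other genes of the pathway few passed. With vector and tau Maff fell (-0.80), Gstm1 rose (0.29), and 3 of 24 glutathione and thioredoxin genes fell, among them Txn1 (-0.28) and Slc3a2 (-0.16), the heavy chain that pairs with the Slc7a11 protein. Taldo1 (-0.16) was the 1 of 6 NADPH genes and Slc40a1 (-0.50), the iron exporter ferroportin, the 1 of 13 heme and iron genes that fell. Nfe2l2 differed by 0.12 with vector (0.379) and by 0.02 with upACSS2 (0.961). Activity genes fell with vector (5 of 8, Npas4 by 1.34) and 1 of 8 fell with upACSS2 (Npas4 by 0.84). Of the astrocyte markers Gfap rose in both, by 0.56 and 0.69, Fgfr3 fell with vector (-0.31) and Aqp4 rose with upACSS2 (0.40). The neuron marker Map2 rose with vector (0.15), and markers of oligodendrocyte precursors fell (3 of 4 and 1 of 4). Their part in the members' values was not tested.

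In the tau culture without virus no gene passed edgeR's test (0% of 16341 genes), 2272 genes and 2 members had an unadjusted p under 0.05, and DESeq2 called 326 genes but no member. Nqo1 was 1.62, 1.81, 1.77 and 1.42 log2 CPM with hAD-tau and 0.52, 1.07 and -0.51 with PBS, without overlap (1.21 ± 0.40, unadjusted p = 0.0177, adjusted 0.322). These values rest on 8 to 84 counts a library. Gsr was 6.40, 6.29, 6.06 and 6.30 against 5.90, 6.04 and 5.53, also without overlap (0.43 ± 0.14, 0.0184, adjusted 0.323). Gsto1 was 4.43, 4.68, 4.44 and 4.74 against 4.58, 4.70 and 5.72, with overlap (-0.52 ± 0.28, adjusted 0.413). The median of the 10 fold changes was 0.15, with 8 above 0, against 0.01 over all genes.

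PBS replicate 3 of that culture stood apart, with 2367 CPM of astrocyte markers against 8755 and 10362 CPM in replicates 1 and 2 and 90.7 CPM of precursor markers against 1700 and 2025 CPM. It had the lowest Slc7a11 of the 7 libraries (3.08 log2 CPM against 7.03 and 7.35) and the highest Gsto1. Without it the differences were 0.80 for Nqo1 (adjusted p = 0.326) and 0.29 for Gsr (0.351). With hAD-tau the astrocyte markers summed to 14545, 12540, 7585 and 10094 CPM. Their part was not tested.

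On day 21 no member passed in any comparison of virus or tau. Of 14639 genes 0.0137% passed for upACSS2 with PBS, 0.0273% for upACSS2 with hAD-tau, and 0% for tau with vector, tau with upACSS2 and the difference between them. The number of members with an unadjusted p under 0.05 was 2, 1, 3, 0 and 3 in that order, and DESeq2 called none of the 10 in each. Of all 14639 genes 2431, 1564, 1361, 931 and 1215 had such a p. The spread between libraries was larger than on day 9 (biological coefficient of variation 0.189 against 0.042).

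With upACSS2 and PBS all 10 members had fold changes below 0, with a median of -0.34 against 0.00 over all genes. Nqo1 was 1.28, 0.86 and 1.20 log2 CPM against 1.86, 1.65 and 2.96 with vector, without overlap (-1.21 ± 0.41, edgeR adjusted p = 0.214), and Osgin1 was 0.76, 0.96 and -0.25 against 1.26, 0.98 and 2.06, also without overlap (-0.99, 0.255). Without vector and PBS replicate 3, the library with the highest astrocyte level, these were -0.64 (0.542) and -0.56 (0.621). For tau with vector, which shares the vector and PBS libraries, 9 of 10 were below 0, with a median of -0.36. Slc7a11 was 3.05, 4.68 and 4.17 against 4.48, 4.41 and 6.12 (-1.16 ± 0.52, 0.53), and without the same library its difference was -0.33. Nfe2l2 differed by -1.06 (0.259) and -0.91 (0.53) in these comparisons.

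On day 21 Gsto1 was lower with upACSS2 and tau than with vector and tau. The same upACSS2 and tau libraries overlapped those with upACSS2 and PBS (4.56 to 5.14) and with vector and PBS (4.665 to 5.47). Gsto1 was 4.35, 4.72 and 4.39 log2 CPM against 5.36, 5.41 and 5.04 with vector and tau, without overlap (-0.77 ± 0.21, edgeR unadjusted p = 0.00363, adjusted 0.28). With all 24 unstimulated libraries in the fit it passed (-0.78, 0.016), and so did Nqo1 with upACSS2 and PBS (-1.20, 0.0406). Astrocyte markers summed to 7737, 6286 and 11785 CPM with upACSS2 and tau and to 3781, 5956 and 5964 CPM with vector and tau, and their part was not tested.

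In the stimulated neurons Gsto1 was lower with upACSS2 and hAD-tau together than in each other group. Its log2 CPM was 4.70, 4.66 and 4.50 in that group, 5.25, 5.41 and 5.02 with upACSS2 and PBS, 4.87, 5.16 and 5.04 with vector and PBS and 5.21, 5.24 and 5.26 with vector and tau, so the first group lay below the other 3 without overlap. Against vector and tau the fold change was -0.62 ± 0.11 (edgeR adjusted p = 0.0304), the 1 member of 10 that passed (0.937% of all genes passed). Against upACSS2 and PBS it was -0.62 ± 0.11 (0.048), again the 1 of 10 (0.208% passed, 0.0201% lower). The comparisons share the upACSS2 and tau libraries. The difference between the tau effects with upACSS2 and with vector was -0.82 ± 0.15 (unadjusted p = 0.00015, adjusted 0.205), and no gene of 14939 passed in that test (0%). In it 2 members and 2135 of all genes had an unadjusted p under 0.05. DESeq2 called 1 member, Gsto1 (0.00195), among 128 genes.

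The calls of Gsto1 rest on few libraries. Against vector and tau it was lost without upACSS2 and tau replicate 1 (0.132), 2 (0.0704) or 3 (0.111), without vector and tau replicate 1 (0.0849) or 3 (0.091), and with only those groups in the fit (0.051). Against upACSS2 and PBS it was lost without upACSS2 and PBS replicate 1 (0.165) or 2 (0.219) and without upACSS2 and tau replicate 1 (0.146), 2 (0.15) or 3 (0.164). The fold changes stayed between -0.52 and -0.70 over these fits. Cfap43, which overlaps Gsto1 on the opposite strand, had 33 to 174 counts a library against 617 to 1511 for Gsto1 and differed by 0.19 and -0.23 without passing.

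For upACSS2 against vector with hAD-tau, the median fold change of the 10 members was 0.29 against 0.00 over all genes. Nqo1 was 1.96, 2.00 and 1.84 log2 CPM against 0.58, 0.94 and -0.80, without overlap (1.56 ± 0.42, edgeR adjusted p = 0.0897). Over the stimulated neurons Nqo1 had 11 to 128 counts a library. Srxn1 was 7.10, 7.08 and 7.10 against 6.67, 6.73 and 6.48, without overlap (0.46, 0.0612, and 0.0459 with replicate numbers as a block, which made 2 members in all). Gclm was 5.74, 5.75 and 5.67 against 5.34, 5.53 and 4.99 (0.41, 0.106) and Gsr 6.27, 6.26 and 6.28 against 5.92, 6.06 and 5.69 (0.37, 0.133), both without overlap. Besides Gsto1, 5 members had an unadjusted p under 0.05 in edgeR, where 3047 of all 14939 genes did. DESeq2 called 4 members in all, among 966 genes. The share of all genes without overlap between these groups was not computed. Without vector and tau replicate 2 Gclm (0.0469) and Srxn1 (0.0487) passed in edgeR.

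For hAD-tau against PBS with vector in stimulated neurons, Gsr fell and was the 1 member of 10 that passed (3.02% of all genes passed, 1.76% lower). It was 5.92, 6.06 and 5.69 log2 CPM with hAD-tau and 6.50, 6.27 and 6.48 with PBS, without overlap (-0.53 ± 0.13, edgeR adjusted p = 0.0489). The call was lost without vector and PBS replicate 1 (0.195) or 3 (0.158), without vector and tau replicate 1 (0.0882) or 3 (0.174), and with only those groups in the fit (0.0967). The median of the 10 was -0.32 against 0.01 over all genes. Nqo1 was 0.58, 0.94 and -0.80 against 2.23, 1.34 and 1.77 (-1.43 ± 0.43, 0.0735), Srxn1 6.67, 6.73 and 6.48 against 7.17, 6.75 and 7.09 (-0.38, 0.0653), and Slc7a11 3.91, 4.53 and 2.45 against 4.79, 4.67 and 4.73 (-0.87, 0.185). Nqo1, Srxn1 and Slc7a11 were each without overlap between these groups. Gsto1 did not overlap either, and was higher with hAD-tau (5.21 to 5.26 against 4.87 to 5.16). The share of all genes without overlap was not computed, so this does not set these genes apart. In edgeR 6 members and 3624 of 14939 genes had an unadjusted p under 0.05 here.

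Leaving out 1 library brought Nqo1, Srxn1 or Slc7a11 past the threshold in edgeR. Nqo1 passed without vector and PBS replicate 2 (0.0469) or vector and tau replicate 2 (0.041), Srxn1 without the same libraries (0.0157 and 0.0493) and Slc7a11 without vector and tau replicate 2 (0.0422). DESeq2 called 3 members, among 1534 genes. With upACSS2 the tau comparison gave Nqo1 a fold change of 0.32 ± 0.38 (0.729), and the difference between the tau effects on Nqo1 was 1.75 ± 0.57 (0.252).

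Astrocyte markers moved alongside. They summed to 10436, 6585 and 10228 CPM with vector and PBS, to 4940, 4950 and 3187 CPM with vector and tau, to 10253, 5780 and 9918 CPM with upACSS2 and PBS, and to 8693, 8239 and 7673 CPM with upACSS2 and tau. Of 11 astrocyte markers 2 fell for tau with vector, Aldh1l1 (-0.79) and Gfap (-1.70). For upACSS2 with tau 1 of 8 neuron markers rose, Gad2 (0.56). Their part in the members' values was not tested. Nfe2l2 differed by -0.77 for tau with vector (edgeR adjusted p = 0.0525) and by 0.70 for upACSS2 with tau (0.0923). Outside the members Slc40a1 fell for tau with vector (-0.90, 1 of 13 heme and iron genes). Ddit3 fell for upACSS2 with tau (-1.07, 1 of 12 genes of the ATF4 list). With PBS upACSS2 moved no member (0.208% of all genes passed). There 4 members had an unadjusted p under 0.05, all higher, and DESeq2 called none. Of all 14939 genes 2375 had such a p, and 1147 of these were higher.

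Stimulated and unstimulated neurons of day 21 are in separate tables and were set side by side without a test. With vector and PBS the mean log2 CPM of Hmox1 was 5.77 in stimulated and 6.17 in unstimulated neurons, that of Srxn1 7.00 and 6.93, and that of Osgin1 0.35 and 1.44. With upACSS2 and PBS Slc7a11 had means of 5.11 and 4.37 and Srxn1 of 7.26 and 6.70. Gsto1 had means of 4.62 and 4.49 with upACSS2 and tau and of 5.24 and 5.27 with vector and tau.

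**Figure D4:**
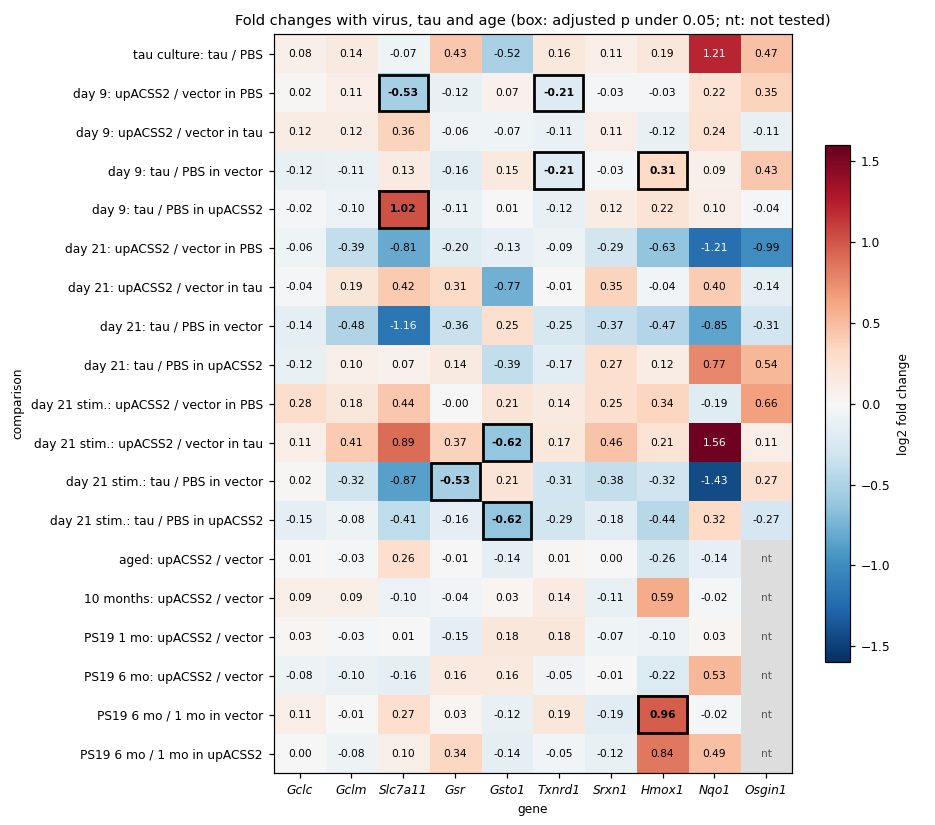
Log2 fold changes from edgeR (number and colour of each cell) of the 10 genes (columns) in the virus, tau and age comparisons (rows), with a box where the adjusted p is under 0.05 and nt where a gene was not tested. The 9 boxed cells are Slc7a11 (-0.53 and 1.02), Txnrd1 (-0.21 in both) and Hmox1 (0.31) on day 9, Gsto1 (-0.62 in both) and Gsr (-0.53) in stimulated neurons, and Hmox1 (0.96) in PS19 mice.

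In mice upACSS2 moved none of the 9 members tested past the threshold in edgeR or DESeq2. In aged mice no gene of 15157 passed (0%), 846 genes had an unadjusted p under 0.05, and 2 of these were members. Slc7a11 had a lowest, median and highest log2 CPM of 5.36, 5.93 and 6.40 with upACSS2 and of 5.18, 5.74 and 5.82 with vector (0.26 ± 0.11, unadjusted p = 0.0205, adjusted 0.875), and Gsto1 of 4.34, 4.57 and 4.82 against 4.48, 4.73 and 4.90 (-0.14 ± 0.06, 0.0179, adjusted 0.875). Both pairs of groups overlap. Gclc (5.85 to 6.15 against 5.87 to 6.11) and Gclm (5.90 to 6.18 in both) lay in nearly the same range.

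In mice of 10 months no gene of 13629 passed (0%), and 1204 genes had an unadjusted p under 0.05. Hmox1 was the 1 member among these. Its lowest, median and highest log2 CPM with upACSS2 were 2.35, 2.67 and 2.86, and its values with vector were 2.33, 2.04, 1.97, 1.83 and 2.17, without overlap (0.59 ± 0.16, edgeR unadjusted p = 0.00217, adjusted 0.518). These rest on 17 to 59 counts a library. Nqo1 had 2.15, 2.37 and 3.63 with upACSS2 and 3.29, 3.07, 2.65, 1.83 and 1.74 with vector (-0.02 ± 0.33). The highest library of each group also held the most choroid plexus markers, at 5474 and 4471 CPM, against a median of 106.6 CPM over the 11 libraries. After subtracting group means, Nqo1 and the choroid plexus sum had a correlation of 0.62 over the 35 libraries of aged and 10-month mice (0.44 without the 2 farthest) and of -0.05 over the 20 PS19 libraries (-0.30), and their part was not tested. Over all 55 mouse libraries Nqo1 had 0.48 with choroid plexus markers (0.31) and 0.42 with oligodendrocyte markers (0.44). The other lists lay between -0.19 (endothelial cells) and 0.29 (microglia).

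In PS19 mice upACSS2 was compared with vector at 1 and at 6 months, and no gene of 15850 passed at either time (0%). An unadjusted p under 0.05 was found for 463 genes at 1 month and for 2237 at 6 months. At 6 months Nqo1 was 3.26, 2.56, 3.01, 2.40 and 2.69 log2 CPM with upACSS2 and 2.12, 2.26, 2.38, 2.33 and 2.36 with vector, without overlap (0.53 ± 0.16, edgeR unadjusted p = 0.00357, adjusted 0.192), the 1 member with an unadjusted p under 0.05. In these libraries choroid plexus markers summed to 5946, 2152, 609.1, 126.3 and 3374 CPM against 111.8, 81.9, 83.0, 298.9 and 447.2 CPM. After subtracting group means over the 20 PS19 libraries, Nqo1 had a correlation of 0.75 with oligodendrocyte markers (0.76 without the 2 farthest). With precursor markers it was 0.61 (0.54), with choroid plexus markers -0.05, and with the other lists between -0.56 (endothelial cells) and 0.36 (microglia). The part of these cells was not tested. At 1 month Nqo1 was 2.12, 2.02, 2.45, 2.67 and 2.33 against 2.38, 2.43, 2.27, 1.96 and 2.48 (0.03 ± 0.17). There Txnrd1 was the 1 member with an unadjusted p under 0.05 (6.32, 6.37, 6.14, 6.48 and 6.32 against 6.09, 6.11, 6.11, 6.17 and 6.26, 0.18 ± 0.07, unadjusted p = 0.0193, adjusted 0.964), where tissue and virus cannot be told apart. No member passed in the test of the difference between the times (0% of all genes). There 2 members and 1956 of 15850 genes had an unadjusted p under 0.05, and DESeq2 called no member. The test of the difference uses the same 1-month group and has the same limit.

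Hmox1 rose between 1 and 6 months in PS19 mice with vector, the 1 member of 9 that passed (4.59% of all genes rose). Its log2 CPM was 1.53, 2.17, 2.33, 1.01 and 2.94 at 1 month and 2.93, 2.42, 3.60, 3.09 and 3.14 at 6 months, and the groups overlap (0.96 ± 0.28, edgeR adjusted p = 0.0434). The call was kept without replicate 5 at 1 month or replicate 2 at 6 months and lost without any 1 of the other 8 libraries, with fold changes from 0.76 to 1.23 over the 10 fits and adjusted p up to 0.122. It was also lost with no filter on low counts (0.0506) and with only those groups in the fit (0.1002). With upACSS2 Hmox1 was 2.01, 1.95, 1.85, 2.28 and 2.06 at 1 month and 2.78, 2.34, 3.13, 3.29 and 2.53 at 6 months, without overlap (0.84 ± 0.29, 0.225), where time and tissue cannot be told apart. No member passed there (0.0442% of all genes passed). An unadjusted p under 0.05 was found for 3 members and for 2166 of 15850 genes, and DESeq2 called no member.

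Microglial markers summed to 539.2, 809.8, 530.7, 409.9 and 1254 CPM with vector at 1 month and to 893.5, 612.6, 1430, 1052 and 1102 CPM at 6 months, and 1 of 9, Csf1r, rose (0.60). Astrocyte markers summed to 5576, 6956, 6920, 4629 and 7246 CPM at 1 month and to 7263, 5705, 11049, 8278 and 7345 CPM at 6 months, and none of 11 passed. The libraries with the least and the most Hmox1 at each time were those with the least and the most of both marker sums. Of 4 precursor markers 2 rose, Cspg4 (0.83) and Olig2 (0.62), and of 6 oligodendrocyte markers 1, Mag (0.74). After subtracting group means, Hmox1 and the microglial sum had a correlation of 0.75 over the 55 mouse libraries and of 0.82 over the 20 PS19 libraries, and of 0.70 and 0.75 without the 2 farthest libraries. With the astrocyte sum the correlation of Hmox1 was 0.81 over the 20 PS19 libraries (0.79 without the 2 farthest). Their part in the rise was not tested. Of the other genes of the pathway with vector, G6pdx, which starts the pentose phosphate route to NADPH, rose (0.49, 1 of 6), Abcc1, an exporter of glutathione conjugates, rose (0.46, 1 of 13), and Prdx5 (-0.39), Ggct (-0.47) and Gstm5 (-0.50) fell (3 of 24). Nfe2l2 differed by 0.42 (0.289) and Keap1 by -0.19 (0.0502).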

How the data were processed

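RNA of 98 libraries in 22 groups was measured by sequencing. The deposited files are 6 tables of raw counts by gene symbol made by the authors, with 1 column a library and no column without a sample (0 unused). Per the submitters' processing notes the tools were STAR, featureCounts, HTSeq and DESeq2 and the build mm10, with no role given. The counter, strand setting and annotation of each table are not given in the sources used here, so reads of overlapping genes may have been shared in an unknown way. A row without a gene name (6.13% to 8.74% of counts in the table of the tau culture without virus) was left out. Total counts a library ran from 5683314 to 29890248 in that table, 14603730 to 33960722 in unstimulated and 18804544 to 39985460 in stimulated neurons, 11436140 to 28161314 in aged, 5075099 to 10839489 in 10-month and 6910945 to 33259982 in PS19 mice. Fewer counts give less precision.

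From the counts, log2 CPM with a prior count of 2 was computed after TMM scaling. Comparisons (27) used edgeR 4.0.16 (quasi-likelihood F test, two-sided, filterByExpr, Benjamini-Hochberg over all genes tested, threshold 0.05, R 4.3.3), with day 9 and day 21 fitted apart (12 libraries each) and together (24) for the day comparison. All groups of a fit shared the estimate of spread. Overlap between groups is described for single genes only, and the share of all genes without overlap was not computed. The steps were checked on simulated data. As alternatives, DESeq2 1.42.0, RLE scaling, fits without a filter, fits of the compared groups alone, the replicate number as a block, all 24 unstimulated libraries, limma 3.58.1 (voom with a variance per group) for the days, and each library left out in turn (not for the aged mice) were run. Same-numbered libraries deviated together (every correlation above 0.1) in the tau culture (0.22 to 0.39), in stimulated neurons for tau with vector (0.12 to 0.33) and in stimulated neurons for upACSS2 with tau (0.11 to 0.36). There the number may pair libraries, as a hint from the data and not from the labels. In aged mice replicates 1 to 3 also deviated together (0.39 to 0.45), while replicates 4 to 12 ran from -0.09 to 0.21. The aged mice were therefore also fitted with these replicate sets apart and with the split as a term. The cause of the split was not tested.

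The members and lists were chosen with earlier results of these data known. Pathway lists were regulators, glutathione and thioredoxin, NADPH supply, heme with iron and export, ATF4 with its targets, and activity genes. Chac1 was in both the glutathione and thioredoxin list and the ATF4 list and was counted in each. Of a list, at most 3 genes of lowest adjusted p were named, beside Nfe2l2, Keap1 and Bach1. Marker lists were neurons, astrocytes, microglia, oligodendrocytes and their precursors, endothelial cells, fibroblasts with mural cells, and choroid plexus. Fibroblast and mural markers summed to at most 89.9 CPM in cultures and 214.3 CPM in mice, and endothelial markers to 31.3 to 180.5 CPM in mice.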

Additional observations from a re-analysis of the deposited data

Results flagged for a closer look

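Of 70 gene and group combinations with 4 to 10 libraries, 6 held a library whose distance from its nearest neighbour was large against the range of its group (Dixon's ratio), where chance gives about 3.5. All 6 were in mice, but neuron groups of 3 libraries and aged groups of 12 could not enter this check. Of the neurons only the 4 hAD-tau libraries of the culture without virus entered it. The flags therefore do not compare neurons with mice. Nqo1 was 3.63 log2 CPM in 10-month upACSS2 replicate 1, against 2.15 to 2.57 in the other 5 libraries. Gclc was 6.15 in replicate 3 of the same group, against 5.81 to 5.93. Gclm was 6.04 in PS19 upACSS2 replicate 3 at 6 months, against 5.85 to 5.88, and Gsr was 4.57 in PS19 vector replicate 5 at 6 months, against 4.89 to 5.02. Osgin1 was 0.51 in PS19 vector replicate 5 at 1 month (15 counts), against -1.86 to -1.18, and -3.01 in PS19 upACSS2 replicate 2 at 6 months (0 counts), against -0.88 to -0.43. With a prior count of 0.5 in place of 2 the first of these Osgin1 values no longer stood apart, which left 5. None of the 39 tests of a member's difference between effects passed the threshold.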

How the results depend on the processing

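For members with an unadjusted p under 0.05, leaving out 1 library at a time kept the direction of all 633 fold changes and the side of the threshold of 567; 57 calls were lost and 9 gained. The other alternatives gave these members 506 values, of which 475 kept both, 16 lost and 15 gained a call, and none reversed. For the number of members past the threshold, all 24 unstimulated libraries in the fit gave 0 in each day 9 comparison with calls (upACSS2 with PBS, tau with vector, tau with upACSS2) and 1 for upACSS2 on day 21 with PBS and with tau. For tau with vector on day 9, DESeq2 and only the groups compared gave 1 each. For upACSS2 with tau in stimulated neurons, no filter gave 2, DESeq2 4 and only the groups compared 0, and for tau with vector there DESeq2 gave 3 and only the groups compared 0. The difference between tau effects gave 1 with no filter on day 9, and 1 with DESeq2 in stimulated neurons. In PS19 mice with vector between the times, no filter and only the groups compared gave 0. The cause was not tested.

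With the replicate number as a block, or pairing, 1 member passed in edgeR for tau with vector on day 9. Txnrd1 kept its call there and Hmox1 lost it (adjusted p = 0.0584). The number was 1 for the difference between tau effects on day 9 (Slc7a11, 0.0293) and 2 for upACSS2 with tau in stimulated neurons. For the difference between tau effects in stimulated neurons it was 1 (Gsto1, 0.0345). In PS19 mice with vector between the times it was 0, as Hmox1 lost its call (0.0607). Gsto1 also passed under the block between the days with upACSS2 and PBS (-0.32, adjusted p = 0.0473). The block moved no other count of members by more than 1.5 times. Without 1 library the numbers ran from 0 to 2 for upACSS2 with PBS and for tau with vector on day 9, from 0 to 1 for tau with upACSS2 and for the difference there, from 0 to 3, 0 to 4 and 0 to 1 for upACSS2 with tau, tau with vector and tau with upACSS2 in stimulated neurons, and from 0 to 1 in PS19 mice. Between the days they ran from 8 to 9, 6 to 8, 5 to 7 and 6 to 8. Depth limits Osgin1 and Nqo1 on day 9 and Osgin1 in mice, which rest on 8 to 25 and 0 to 16 counts a library. Nqo1 also had few counts in some other libraries, with 8 to 84 in the tau culture without virus and 11 to 128 in stimulated neurons.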

Other observations

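Beyond the comparisons, the members differed in which cell markers their deviations within groups followed. Without the day 9 libraries, Nqo1 and the astrocyte marker sum had a correlation of 0.83 over 31 neuron libraries (0.81 without the 2 farthest). In mice the correlation with the astrocyte sum differed between sets: for Hmox1 it was 0.03 over the 35 libraries of aged and 10-month mice and 0.81 over the 20 PS19 libraries, for Slc7a11 0.30 and 0.79, and for Gclm 0.40 and 0.64. Without the 2 farthest these were 0.15 and 0.79, 0.12 and 0.71, and 0.36 and 0.40. Hmox1 and the microglial sum had a correlation of 0.68 over the same 35 libraries, close to its value over all mouse libraries. Each correlation shares its libraries and their depth scaling, and none carries a test.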
